A study of Mus musculus with 4 samples.

Results

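Genes of glycolysis, the pentose phosphate pathway and the response to low oxygen were compared in sorted mouse spleen cDC2 of 2 genotypes, wild type (WT) and knockout of Id2 (Id2 KO). They were chosen by name as a list of 39 genes, and each was read from its brightest probe set among those annotated to that symbol alone. Of the 39, 34 had such a probe set and 31 of those were bright enough to be tested, against 19938 measured and 11963 tested genes on the whole array. The 39 fall into 16 glycolytic enzymes, 2 lactate dehydrogenases, 4 enzymes that set the level of fructose 2,6-bisphosphate, 6 genes of pyruvate dehydrogenase and its kinases, 5 pentose phosphate enzymes and 6 genes of the hypoxia response. Gpi1, Gapdh, Eno1, Pfkfb1 and G6pdx had no probe set of their own, and Ldhb, Pdk4 and Egln3 lay below the intensity filter.

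The cDC2 are conventional dendritic cells that mainly present antigen to CD4 T cells, and Id2 is a helix-loop-helix protein that holds E proteins away from DNA. The 2 WT arrays came from Zbtb46-GFP chimeric mice and the 2 arrays labelled Id2 KO from Zbtb46-GFP chimeras in which Id2 was knocked out, as labelled. Both groups therefore shared the chimeric state and the reporter, a fluorescent protein made by cells that express the dendritic cell factor Zbtb46. The cells were sorted by flow cytometry, and the labels name no treatment or time point. The labels place the cells in the spleen, while a sentence of the design text also names bone marrow. The sources used here give neither the age of the mice nor the deleted part of Id2, the cells left from the host or whether replicates came from separate mice. The p-values thus reflect the spread of these samples alone, and that spread may be technical.

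Glycolysis splits glucose to pyruvate and yields ATP and building blocks without needing oxygen. The pentose phosphate pathway branches from it, yielding NADPH for reductive synthesis and defence against oxidants, and ribose for nucleotides. When oxygen is scarce, the prolyl hydroxylases of the Egln family no longer mark hypoxia-inducible factors for destruction, and these factors raise the transcription of many glycolytic genes and of genes such as Vegfa. Activated dendritic cells are known to raise glycolysis, and the labels name no activating stimulus for the cells compared here.

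The arrays had median intensities of 134 and 130 (WT) and 128 and 132 (Id2 KO), and the lowest intensity of any probe set was 5.19, so no gene is listed at 0. All values below are log2 intensities unless stated, and a difference is the Id2 KO mean minus the WT mean, with 2 arrays per group. Levels of different probe sets are not set against each other. Id2 itself was at 9.14 and 9.08 (WT) and 8.71 and 8.97 (Id2 KO), a difference of -0.27 short of the threshold (limma, adjusted p = 0.172). Its probe set may lie outside the deleted part, in which case it checks nothing, so every direction below rests on the labels. All 10 genes that mark conventional dendritic cells were tested, with 0 called higher, 1 called lower and 9 not called. Itgax (CD11c) was at 12.84 and 12.85 (WT) and 12.81 and 12.86 (Id2 KO). The lower gene was Zbtb46, which fell from 7.57 and 7.55 (WT) to 6.49 and 6.59 (Id2 KO), below the filter level of 6.77. It was tested only through its WT values. Xist was at 11.96 and 11.96 (WT) and 6.67 and 6.68 (Id2 KO). Y-linked Kdm5d moved the other way, from 5.72 and 5.53 (WT) to 8.08 and 8.50 (Id2 KO), a difference of 2.66. Genotype and sex-linked levels therefore cannot be told apart. Marker genes of other cells also split with the groups. Neutrophil markers fell in 13 of 14 tested (summed intensity 19494 to 20268 in WT, 3467 to 4578 in Id2 KO). The other one, Csf3r, rose by 0.82 (limma, adjusted p = 0.000808). Red pulp macrophage markers fell in 6 of 8 (3386 to 3841 against 2478 to 2549), monocyte markers in 4 of 9 (14693 to 15864 against 13103 to 13476) and erythroid markers in 4 of 5 (1553 to 1814 against 863 to 891). B cell markers rose in 9 of 10 (1603 to 1609 against 2990 to 3433), and cell cycle genes in 20 of 21 (11569 to 11884 against 20738 to 26524). Markers of plasmacytoid dendritic cells rose in 5 of 8 (2408 to 2445 against 2889 to 3067). The cDC2 markers of the sorted cells themselves had 4 lower and 2 higher of 11 (20151 to 20364 against 16446 to 16663), among them Itgam (CD11b) with a difference of -0.998 and Esam with 0.53. Markers of cDC1 and of T and NK cells each had 1 lower of 5. Over all tested genes, 5.53% were called higher and 2.52% lower. Some called markers had a group mean under the filter level. These were Cr2, Fcer2a, Blnk and Kdm5d in WT, and Mmp8, Mpo, Prtn3, Cxcr2, Chil3, Slc40a1, Zbtb46 and Xist in Id2 KO. They were tested only through the group where they are high, so their calls are no support. In such bulk samples fewer cells of a type and less RNA per cell cannot be told apart.

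Among these genes of glycolysis, the pentose phosphate pathway and the hypoxia response, Vegfa was lower and Eno2 higher in Id2 KO. The number of calls was near that of the array as a whole. Of the 31 tested members, 2 passed the test (limma, adjusted p under 0.05), where 8.04% of all tested genes passed. Eno2, a neuronal form of the glycolytic enzyme enolase, was the 1 higher member (background 5.53% of tested genes higher), and Vegfa, which encodes a growth factor for blood vessels, was the 1 lower member (background 2.52% lower). The groups did not overlap in 17 of the 31, against 50.7% of all tested genes. Over the 34 measured members, 17 were higher and 17 lower, with a median difference of 0.01, beside -0.01 over all measured genes. Over the 31 tested members the median was 0.02, beside 0.01 over all tested genes. The typical size of a difference was also near that of the array. Its median regardless of sign was 0.10 among the measured members, 0.09 among all measured genes and 0.10 among all tested genes. In 24 of the 34 the gap between the replicates of a group was wider than the difference between the groups, as it was in 13538 of all 19938 measured genes. The plot of differences by role shows these values for all 34.

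**Figure D1:**
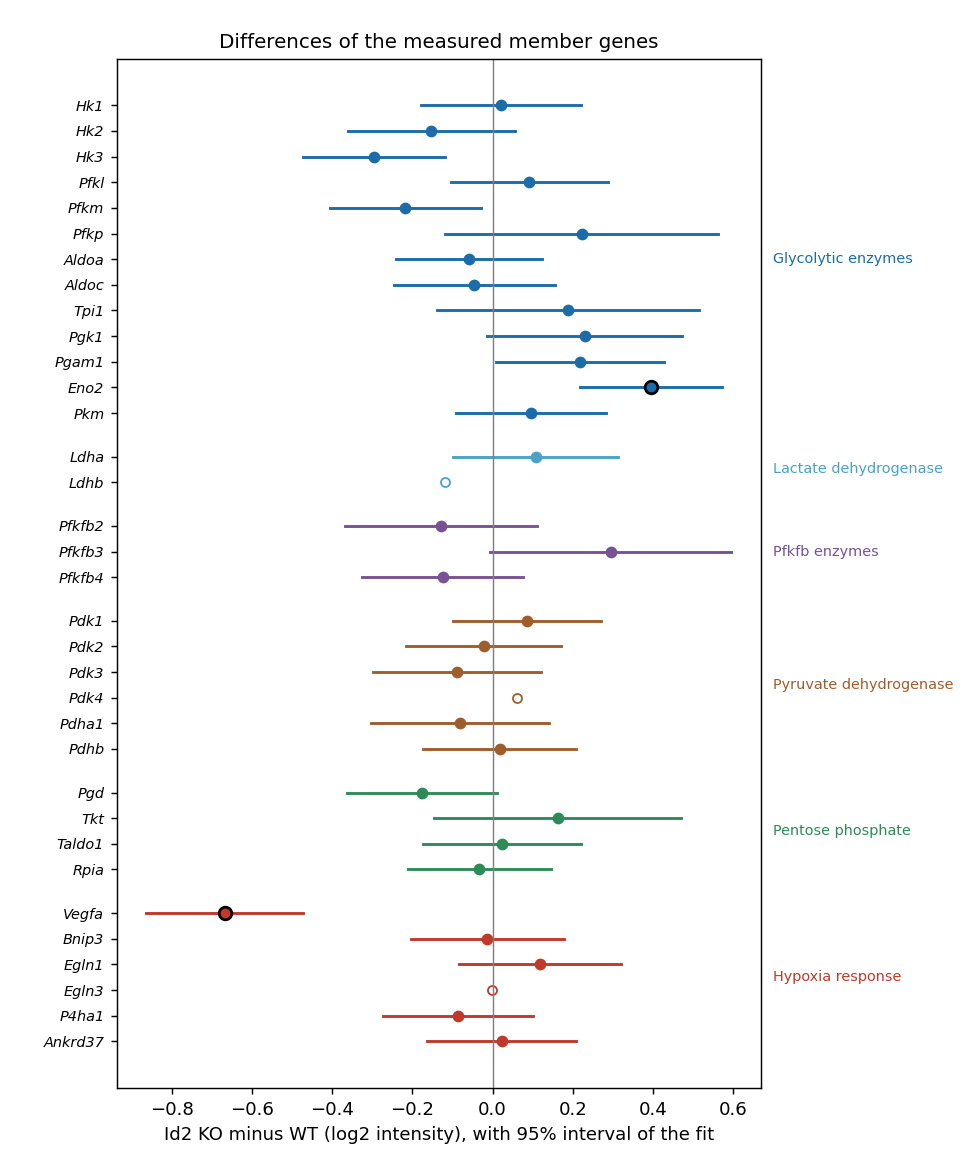
Id2 KO minus WT difference (log2 intensity, horizontal axis) of each of the 34 measured members, grouped by role, with the 95% interval from limma for the 31 tested members and open symbols for the 3 below the intensity filter. Vegfa at -0.67 and Eno2 at 0.40 passed the test, and of the other intervals only those of Hk3, Pfkm and Pgam1 leave out 0.

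The glycolytic enzymes gave 1 higher and 0 lower member among the 13 measured, all of them tested, with a median difference of 0.09 and a range from -0.30 to 0.40. At the step from phosphoglycerate to phosphoenolpyruvate, Eno2 was at 6.87 and 6.90 (WT) and at 7.2799 on both Id2 KO arrays. The spread used in its test therefore came mostly from the other genes. The groups did not overlap, and the WT values lay just above the filter level of 6.77. The difference was 0.40 (95% interval 0.22 to 0.57), or 1.32-fold (limma, adjusted p = 0.0153). The call was lost when WT replicate 1 (adjusted p = 0.12) or WT replicate 2 (adjusted p = 0.0764) was left out, and with a replicate block (adjusted p = 0.0514). No background was measured beside such a dim probe set, which leaves the size of the Eno2 difference uncertain.

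Hexokinases trap glucose in the cell by phosphorylating it. Hk3, the form best known from myeloid cells, was at 7.88 and 7.86 (WT) and 7.59 and 7.56 (Id2 KO). All 4 values kept the groups apart with replicate gaps of no more than 0.03. The difference of -0.30 (95% interval -0.47 to -0.12) did not pass (adjusted p = 0.0545). It passed in 4 of the alternatives, among them genes above the 60th percentile (adjusted p = 0.0452) and renewed quantile normalization (adjusted p = 0.0341). In the same arrays 13 of 14 tested neutrophil markers and 4 of 9 tested monocyte markers were called lower. These counts include Mmp8, Mpo, Prtn3, Cxcr2 and Chil3, tested only through their WT values, whose calls are no support. The part of neutrophil and monocyte markers in the Hk3 values was not tested. Hk2, an inducible hexokinase, was at 8.75 and 8.95 (WT) and 8.72 and 8.68 (Id2 KO), a difference of -0.15 with an interval from -0.36 to 0.06.

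Hk1, the widely expressed hexokinase, depends on which probe set is read. Its brightest probe set was at 12.22 and 12.07 (WT) and 12.13 and 12.20 (Id2 KO), a difference of 0.02. That probe set lists no RefSeq transcript. All 16 probe sets annotated to Hk1 together with other genes list the same mRNA record, and all of them also name Rpl17, a ribosomal protein gene. The other Hk1 probe set, which lists RefSeq transcripts, was at 8.41 and 8.50 (WT) and 8.51 and 8.29 (Id2 KO), a difference of -0.05. Neither reading separated the groups, and whether the brighter one measures Hk1 was not tested.

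Phosphofructokinase commits sugar to glycolysis and is built from 3 kinds of subunit. The muscle-type subunit gene Pfkm was at 6.94 and 7.05 (WT) and 6.76 and 6.80 (Id2 KO), a difference of -0.22 (95% interval -0.41 to -0.03; adjusted p = 0.174). The platelet-type gene Pfkp was at 9.10 and 9.35 (WT) and 9.68 and 9.21 (Id2 KO), a difference of 0.22 (-0.12 to 0.56) in which KO replicate 2 lay between the WT arrays. The liver-type gene Pfkl differed by 0.09 (-0.10 to 0.29). No subunit gene passed, and the signs of Pfkm and Pfkp were opposite.

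In the middle of the pathway, aldolase cuts the 6-carbon sugar. Of the aldolase genes, Aldoa differed by -0.06 (interval -0.24 to 0.12) and Aldoc by -0.05 (-0.25 to 0.16), and neither passed. Tpi1, whose enzyme interconverts the resulting triose phosphates, was at 9.29 and 9.36 (WT) and 9.76 and 9.26 (Id2 KO), so its difference of 0.19 (-0.14 to 0.51) rested on KO replicate 1. Gapdh, the next enzyme's gene, shared all of its 25 probe sets with other annotated genes and was not tested. All 25 had a positive difference, from 0.14 to 0.18, and the brightest was at 13.10 and 13.08 (WT) and 13.30 and 13.17 (Id2 KO).

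In the lower pathway, Pgk1, an X-linked kinase gene whose enzyme makes ATP, was at 9.09 and 9.05 (WT) and 9.45 and 9.15 (Id2 KO), a difference of 0.23 (-0.01 to 0.47; adjusted p = 0.268). The mutase gene Pgam1 was at 9.63 and 9.77 (WT) and 9.999 and 9.840 (Id2 KO), a difference of 0.22 (0.01 to 0.43; adjusted p = 0.222). Groups of both genes stood apart, and neither passed. Each had 3 probe sets, 2 of them with identical values, with differences from 0.22 to 0.23 for Pgk1 and from 0.17 to 0.22 for Pgam1, and near-identical copies in the genome could share their signal. Pkm, the pyruvate kinase gene, differed by 0.10 (-0.09 to 0.28) at its brightest probe set and by 0.00 at the one that lists RefSeq transcripts.

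Much of the positive glycolytic median came from KO replicate 1. That array was above KO replicate 2 in 10 of 13 glycolytic enzymes (76.9%) and in 23 of the 34 members (67.6%), against 49.4% of all measured and 55.4% of all tested genes. The median difference from the WT mean was 0.14 for KO replicate 1 and -0.02 for KO replicate 2. Without KO replicate 2, Pfkp (0.46, adjusted p = 0.0388), Tpi1 (0.44, adjusted p = 0.0221) and Pgk1 (0.38, adjusted p = 0.0392) passed besides Eno2, a fit in which the lone Id2 KO array is assumed to vary like the WT arrays. KO replicate 1 also exceeded KO replicate 2 in all 21 tested cell cycle genes, with a median gap of -0.39 for replicate 2 minus replicate 1, and their part in the glycolytic values was not tested. The plot of each Id2 KO array against WT shows this spread.

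**Figure D2:**
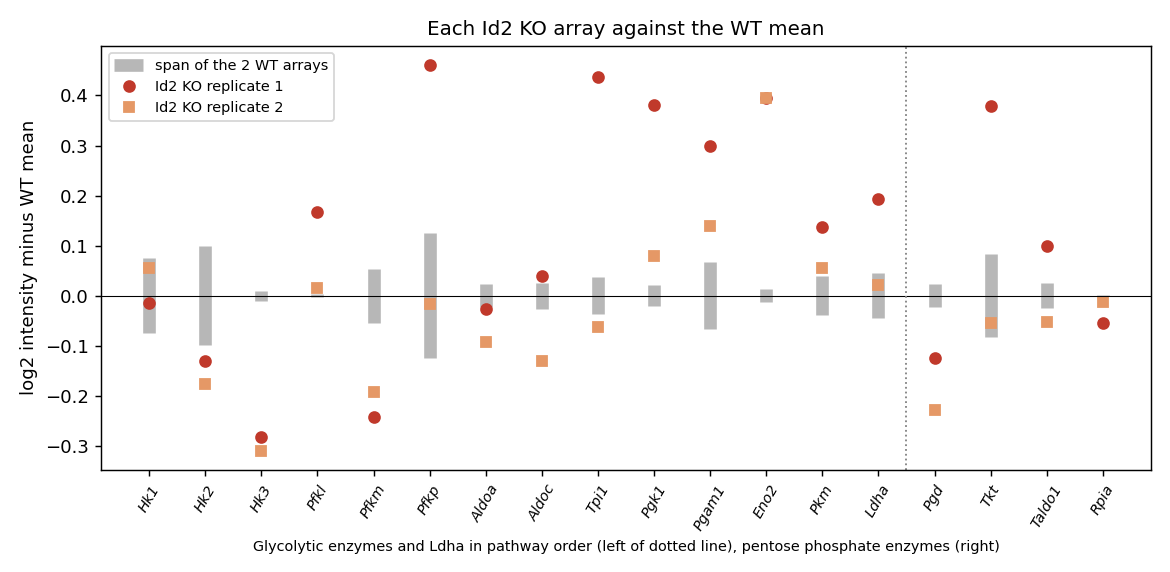
Log2 intensity on each array labelled Id2 KO minus the WT mean (vertical axis) for the 13 glycolytic enzymes and Ldha in pathway order and, right of the dotted line, the 4 pentose phosphate enzymes. Circles are Id2 KO replicate 1, squares replicate 2, and grey bars span the 2 WT arrays; the circle lies above the square for 10 of the 13 glycolytic enzymes, and both symbols of Eno2 coincide at 0.40.

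The lactate dehydrogenase and fructose 2,6-bisphosphate genes had no called member. Ldha, which makes the subunit that favours lactate production, was at 10.12 and 10.21 (WT) and 10.36 and 10.18 (Id2 KO), a difference of 0.11 (-0.10 to 0.31) with overlapping groups. Ldhb, which makes the other common subunit, lay below the filter at 6.58 and 6.66 (WT) and 6.46 and 6.54 (Id2 KO), a difference of -0.12 that was not tested. The enzymes of the Pfkfb family make and remove fructose 2,6-bisphosphate, an activator of phosphofructokinase. Pfkfb3, the form with the strongest bias to making it, was at 9.65 and 9.64 (WT) and 9.72 and 10.16 (Id2 KO), a difference of 0.29 (-0.01 to 0.60; adjusted p = 0.251). Both arrays labelled Id2 KO were above WT, and most of the difference lay in KO replicate 2. Without KO replicate 1 it was 0.52 (adjusted p = 0.0104), again with a lone Id2 KO array whose spread is taken from the WT arrays and the other genes. Pfkfb2 was at 7.86 and 8.15 (WT) and 7.85 and 7.90 (Id2 KO), a difference of -0.13 (-0.37 to 0.11), and Pfkfb4 differed by -0.12 (-0.32 to 0.08).

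Pyruvate dehydrogenase feeds pyruvate into the citric acid cycle, and its kinases switch it off. None of the 5 tested genes passed, and the 6 measured differences lay between -0.09 and 0.09. The subunit genes Pdha1 (-0.08, interval -0.30 to 0.14) and Pdhb (0.02, -0.17 to 0.21) had overlapping groups. Among the kinase genes, Pdk3 was at 9.61 and 9.62 (WT) and 9.63 and 9.42 (Id2 KO), a difference of -0.09 (-0.30 to 0.12). Pdk1, a hypoxia target, was at 7.34 and 7.38 (WT) and 7.41 and 7.48 (Id2 KO), a difference of 0.09 (-0.10 to 0.27). Pdk2 differed by -0.02 (-0.22 to 0.17), and Pdk4, below the filter, by 0.06. The intervals of the tested genes reach from -0.30 to 0.27. Pdk3 and Pdha1 are X-linked, like Pgk1. Of 330 tested X-linked genes 14 were higher and 10 lower, against 5.53% higher and 2.52% lower of all tested genes.

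The pentose phosphate enzymes had no called member among 4 tested, with a median difference of -0.01. Pgd, the second oxidative enzyme and a source of NADPH, was at 9.81 and 9.85 (WT) and 9.71 and 9.60 (Id2 KO). The groups did not overlap, but the difference of -0.18 (-0.36 to 0.01) did not pass (adjusted p = 0.271). Transketolase, encoded by Tkt, belongs to the non-oxidative branch that shuttles carbon back to glycolysis, and was at 8.48 and 8.65 (WT) and 8.94 and 8.51 (Id2 KO), a difference of 0.16 (-0.15 to 0.47). In Tkt, as in Pfkp and Tpi1, KO replicate 1 was the high array and KO replicate 2 was within or below the WT values. Taldo1, the transaldolase gene, differed by 0.02 (-0.17 to 0.22), and Rpia, the ribose phosphate isomerase gene, by -0.03 (-0.21 to 0.15). Pgd was thus the only oxidative enzyme measured among the members, with a negative difference. The non-oxidative enzymes had differences of both signs, from -0.03 to 0.16.

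Among the hypoxia-response genes, Vegfa fell and no other member passed, giving 0 higher and 1 lower of 5 tested with a median of -0.01 over the 6 measured. Vegfa was at 8.68 and 8.79 (WT) and 8.12 and 8.02 (Id2 KO). Both WT arrays were above both Id2 KO arrays by more than the gap between replicates. The difference was -0.67 (95% interval -0.86 to -0.47), or 1.59-fold lower (limma, adjusted p = 0.00153). It passed in 15 of 15 alternatives, with differences between -0.72 and -0.61. In the same arrays neutrophil, monocyte and red pulp macrophage markers had median differences of -2.47, -0.43 and -0.68 over their tested members. Called lower were 13 of 14, 4 of 9 and 6 of 8. Medians and counts include Mmp8, Mpo, Prtn3, Cxcr2, Chil3 and Slc40a1, tested only through their WT values, whose calls are no support. The part of neutrophil, monocyte and red pulp macrophage markers in the Vegfa values was not tested.

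**Figure D3:**
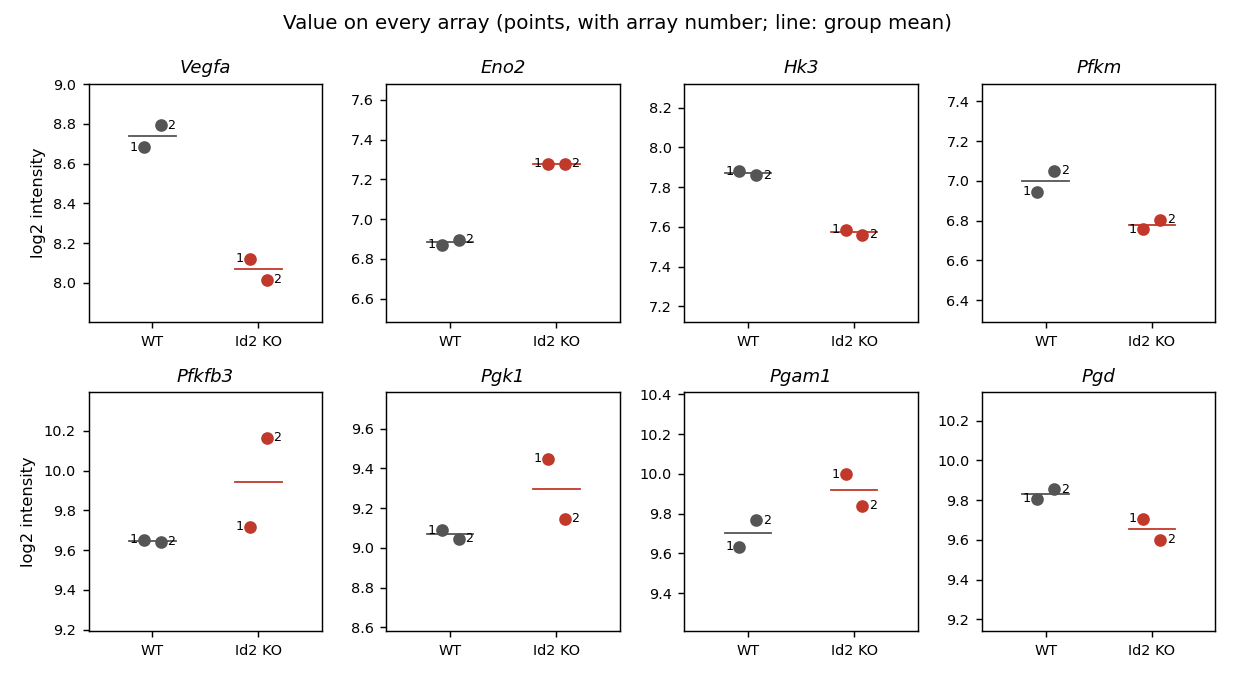
Log2 intensity (vertical axes, each spanning the same log2 range) of 8 members, picked for display after their values were seen, on every array, with points numbered by replicate and a line at each group's mean of 2 arrays. Vegfa, lower in Id2 KO, and Eno2, higher in Id2 KO, are the 2 of the 8 that passed the test.

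None of the other 4 tested hypoxia-response genes passed, and Egln3 was not tested. Egln1, the main oxygen-sensing prolyl hydroxylase gene, was at 7.55 and 7.72 (WT) and 7.79 and 7.72 (Id2 KO), a difference of 0.12 (-0.08 to 0.32). P4ha1, a collagen prolyl hydroxylase gene, differed by -0.09 (-0.27 to 0.10) and the hypoxia-induced Ankrd37 by 0.02 (-0.16 to 0.21). Bnip3, which promotes the removal of mitochondria, differed by -0.01 (-0.20 to 0.18) at its brightest probe set and by -0.17 at the other, and the groups overlapped at both. Egln3, a strongly hypoxia-induced hydroxylase gene, was below the filter at 5.89 and 5.48 (WT) and 5.71 and 5.66 (Id2 KO). The lower ends of the intervals of Egln1, P4ha1, Ankrd37 and Bnip3 lay between -0.27 and -0.08, and the Vegfa interval ended at -0.47.

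Set side by side, the median difference was 0.09 for the glycolytic enzymes, -0.01 for the pentose phosphate enzymes and -0.01 for the hypoxia-response genes. It was 0.01 over all tested genes and -0.01 over all measured genes. These medians are descriptions without a test, and the glycolytic one was -0.02 without KO replicate 1. With arrays centred on the median of the tested genes (an alternative added after the values were seen), 573 genes were higher and 470 lower (54.9% higher) in place of 661 and 301 (68.7% higher). The glycolytic, pentose phosphate and hypoxia medians were then 0.04, -0.06 and -0.06, Vegfa and Eno2 passed, and Hk3 passed as well (adjusted p = 0.0267).

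The 250 bases before the transcription start of the members were searched for the cores of the hypoxia element, ACGTG and GCGTG, to which hypoxia-inducible factors bind, and for the E-box forms CACCTG and CAGCTG, which E proteins bind. Both strands were read, and the palindrome CACGTG counts as ACGTG on each strand. At least 1 hypoxia core stood in 31 of 39 member windows (79.5%), against 10442 of 27025 windows of all genes (38.6%), and the median GC content was 59.2% in the members and 52.0% in all. An E-box form stood in 7 of 39 (17.9%), against 27.4% of all. By role, a hypoxia core stood in 10 of 16 glycolytic enzymes, 5 of 5 pentose phosphate enzymes and 5 of 6 hypoxia-response genes. It also stood in 6 of 6 pyruvate dehydrogenase, 2 of 2 lactate dehydrogenase and 3 of 4 fructose 2,6-bisphosphate genes. In the first 3 roles ACGTG stood in 5, 0 and 5 windows (16.5% of all genes) and GCGTG in 6, 5 and 4 (28.3% of all genes). Their median GC content was 55.6%, 59.6% and 68.6%. The windows of Vegfa and Eno2, the called members, are printed first, followed by those of Bnip3 and Pgk1, a hypoxia-response gene and a glycolytic gene with cores and without a call. They are RefSeq sequences of GRCm38.p6 in the direction of the gene, and capitals mark matches to the 4 motifs.
Vegfa, chr17:46032378-46032627, minus strand: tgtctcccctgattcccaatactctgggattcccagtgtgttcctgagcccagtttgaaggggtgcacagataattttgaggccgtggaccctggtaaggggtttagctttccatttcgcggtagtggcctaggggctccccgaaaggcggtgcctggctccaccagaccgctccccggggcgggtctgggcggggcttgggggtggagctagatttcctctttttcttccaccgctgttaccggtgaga
Eno2, chr6:124769674-124769923, minus strand: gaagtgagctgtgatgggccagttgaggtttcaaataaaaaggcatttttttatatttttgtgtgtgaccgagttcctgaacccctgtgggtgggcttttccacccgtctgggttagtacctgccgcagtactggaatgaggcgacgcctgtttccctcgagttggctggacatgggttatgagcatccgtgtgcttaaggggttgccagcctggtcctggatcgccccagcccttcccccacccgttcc
Bnip3, chr7:138909507-138909756, minus strand: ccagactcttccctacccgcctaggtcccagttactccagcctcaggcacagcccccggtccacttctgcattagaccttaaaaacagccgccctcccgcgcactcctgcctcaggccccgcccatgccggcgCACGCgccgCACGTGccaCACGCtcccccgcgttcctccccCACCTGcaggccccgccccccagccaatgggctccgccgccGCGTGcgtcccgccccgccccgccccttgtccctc
Pgk1, chrX:106186850-106187099, plus strand: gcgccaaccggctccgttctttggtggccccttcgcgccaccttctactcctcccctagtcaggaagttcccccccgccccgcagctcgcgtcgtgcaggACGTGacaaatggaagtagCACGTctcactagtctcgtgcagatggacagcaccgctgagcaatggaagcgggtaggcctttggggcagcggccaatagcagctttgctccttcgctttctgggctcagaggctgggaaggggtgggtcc
Neither the Vegfa nor the Eno2 window holds any of the 4 motifs, which says only that these letters are not in this stretch. Vegfa has 2 starts in the table, and the window is that of the more upstream one. The Bnip3 window holds the palindrome from 108 to 103 bases before the start, GCGTG starting at 117, 99 and 35 bases before it and CACCTG at 76, counted from the end farther from the start. The Pgk1 window holds ACGTG at 150 on the strand of the gene and at 131 on the opposite strand. A match is a description of the sequence and not a measured binding site.

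Of 84 further genes of the same pathways, 63 were tested, of which 4 rose and 5 fell, where 5.53% of all tested genes were higher and 2.52% lower. Among 14 other genes of glycolysis and gluconeogenesis, 1 rose and 1 fell. Eno3, the muscle form of enolase, was at 9.29 and 9.43 (WT) and 9.94 and 10.10 (Id2 KO), a difference of 0.66 (limma, adjusted p = 0.00256) that passed in 15 of 15 alternatives. Eno2 and Eno3 therefore both rose, while Eno1, the form of most tissues, was not analysed here. Bpgm, which makes the 2,3-bisphosphoglycerate of red cells, was at 7.77 and 7.79 (WT) and 7.21 and 7.45 (Id2 KO), a difference of -0.45 (adjusted p = 0.0211). Its call was lost without WT replicate 1, WT replicate 2 or KO replicate 1. Erythroid markers had a median difference of -0.64 in the same arrays, and their part in the Bpgm values was not tested. Pklr, the pyruvate kinase of liver and red cells, at -0.40 did not pass (adjusted p = 0.0694).

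In the other pentose phosphate genes, 1 of 7 rose and none fell, and none of 7 genes of pyruvate entry passed. Prps2, an X-linked gene whose enzyme activates ribose phosphate for nucleotide synthesis, was at 8.19 and 8.28 (WT) and 8.73 and 8.51 (Id2 KO). Its difference of 0.38 (adjusted p = 0.0445) held in 7 of 14 alternatives, and was lost without either WT array, without KO replicate 1, with no filter, with the replicate block and under 2 of the scalings. Cell cycle genes had a median difference of 1.25 in the same arrays, and their part in the Prps2 values was not tested. The next tested gene, Rpe, differed by 0.17, and Tktl2, below the filter and not tested, differed by -0.22. For pyruvate entry, the phosphatase regulator gene Pdpr differed by 0.28 (adjusted p = 0.0704), the phosphatase gene Pdp1 by 0.0350 and the 5 others by between -0.03 and 0.03.

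Regulators of the hypoxia pathway gave 0 higher and 1 lower gene among 10. Cited2, which competes with hypoxia-inducible factors for their coactivators, was at 10.53 and 10.56 (WT) and 10.15 and 10.13 (Id2 KO), a difference of -0.41 (adjusted p = 0.0133) that was lost without either WT array. Hif1a, the oxygen-regulated factor itself, was at 9.25 and 9.33 (WT) and 9.63 and 9.36 (Id2 KO), a difference of 0.20 (95% interval -0.03 to 0.43) that did not pass. The hydroxylase gene Egln2 at 0.39 did not pass either (adjusted p = 0.0764).

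Of 25 other tested targets of hypoxia, 2 were called higher, 3 were called lower and 20 did not pass, with a median difference of -0.00 (all tested genes 5.53% higher and 2.52% lower). Adm, which encodes the vasodilator adrenomedullin, was at 6.62 and 6.57 (WT) and 7.35 and 7.40 (Id2 KO), a difference of 0.78. Its WT values were under the filter level and it was tested only through the group where it is high, so its call, 1 of the 2 higher ones, is no support, and the size of the difference is uncertain. Ddit4, an inhibitor of mTOR signalling, rose by 0.44 (adjusted p = 0.00886), a call lost without either WT array. Plin2, a coat protein of lipid droplets, fell by 0.53 (adjusted p = 0.0069), a call lost without WT replicate 2.

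Both called transporters of the glycolytic route were lower. Slc16a3, the lactate exporter gene, was at 8.29 and 8.08 (WT) and 7.74 and 7.73 (Id2 KO), a difference of -0.45 (adjusted p = 0.0183) that was lost without WT replicate 1. Slc2a1, the glucose transporter gene GLUT1, was at 9.91 and 9.93 (WT) and 9.66 and 9.39 (Id2 KO), a difference of -0.40 (adjusted p = 0.0471). Its call held in 9 of 15 alternatives and was lost without either WT array, without KO replicate 2, with median-centred arrays, with no filter and with the replicate block. Hmox1, which is also in the red pulp macrophage list, at -0.44 did not pass (adjusted p = 0.0511). In the same arrays 4 of 5 erythroid, 13 of 14 neutrophil, 4 of 9 monocyte and 6 of 8 red pulp macrophage markers were called lower. These counts include Mmp8, Mpo, Prtn3, Cxcr2, Chil3 and Slc40a1, tested only through their WT values, whose calls are no support. The part of the markers of these 4 cell types in the transporter values was not tested.

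**Figure D4:**
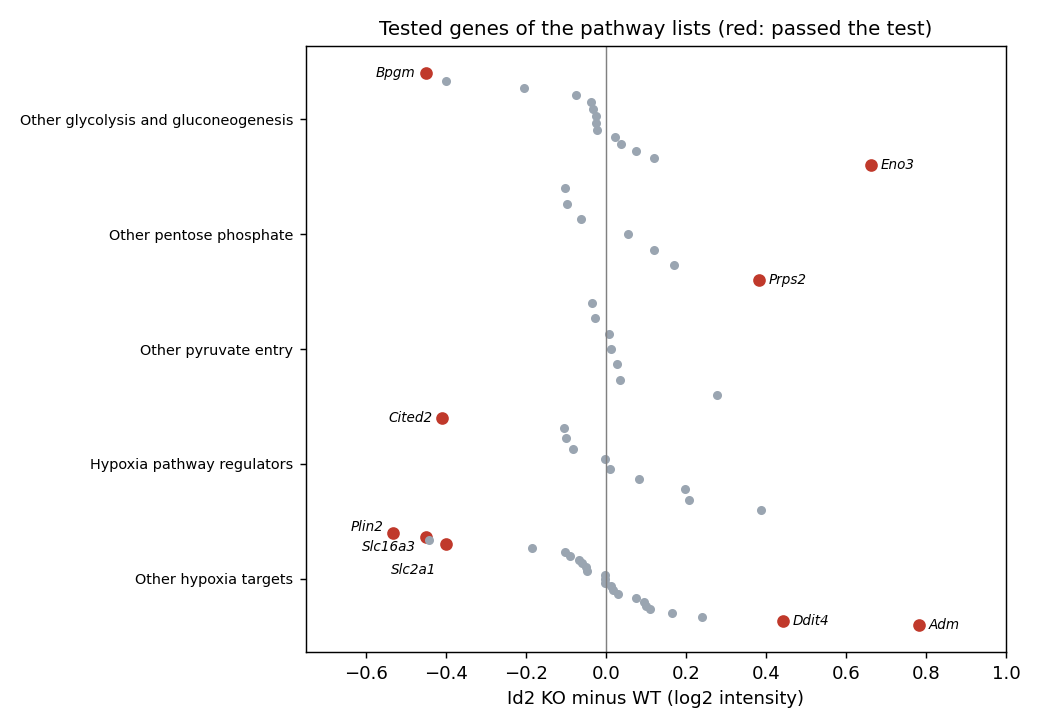
Id2 KO minus WT difference (log2 intensity) of the 63 tested genes of the 5 further pathway lists, 1 point per gene, with the 9 that passed limma's test in red and named. Most points lie near 0 in each list; Adm, the point farthest right, had WT values under the filter level and was tested only through its Id2 KO values.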

How the data were processed

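Gene expression was measured on Affymetrix arrays, 1 per sample, after whole-transcriptome amplification of small RNA amounts, per the labels' protocols. Each probe set has 1 deposited intensity per array, not on a log scale. Per the submitters' processing notes the authors used Affymetrix Expression Console and RMA, whose order is not stated; a genome build is not given in the sources used here. Scanner files were not used, so depth is represented only by intensity and by the 4 arrays, whose number limits the precision.

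The log2 of each intensity was taken without a pseudocount. Of 28853 probe sets, 21789 had 1 gene symbol. Genes whose mean exceeded the 40th percentile (log2 6.77) were tested with limma 3.58.1 in R 4.3.3 (lmFit, eBayes; two-sided, Benjamini-Hochberg over 11963 genes, threshold 0.05). This had 2 residual degrees of freedom and 6.77 prior ones. Intervals are 95% intervals, not adjusted. The procedure was tested on simulated data. All measured members are named, as are, from each further list, genes past the threshold and the 2 with the largest difference. Members, lists and tests were chosen with earlier results of these data known.

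Alternatives changed the filter, scaling, probe set rule, moderation, arrays, sex-linked genes and pairing. Deviations of arrays with the same replicate number correlated at -0.144, so the numbers were not taken to pair the samples.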

Additional observations from a re-analysis of the deposited data

How the results depend on the processing

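Of the 31 tested members, 18 kept the sign of their difference in every alternative run and 13 changed it in at least 1 while uncalled. No called member changed sign. Eno2 and Vegfa made 1 higher and 1 lower member. The higher count was 0 with genes above the 60th percentile, where Eno2 is filtered out, and 0 with the replicate block, and ranged from 0 (without WT replicate 1 or 2) to 4 (without KO replicate 2), with 2 without KO replicate 1. The lower count was 2 with genes above the 60th percentile, with quantile normalization, with the crossed replicate block and with arrays centred on the median of tested genes, where Hk3 joined Vegfa. The last 2 and the RefSeq probe set rule were chosen after seeing the data. The glycolytic median of 0.09 was 0.0029 with probe sets that list RefSeq transcripts and ranged from -0.0162 to 0.1376 with 1 array left out. The hypoxia median of -0.01 was -0.0434 when the probe sets of a gene were averaged and -0.0610 with arrays centred on tested genes, and ranged from -0.0755 to 0.0284 with 1 array left out.

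Over all genes, 962 passed, against 684 with the replicate block and 1380 with the crossed replicate block. The replicate numbers were not taken to pair the samples. Leaving out WT replicate 1 gave 459 and WT replicate 2 gave 627. Filter, moderation and block choices do not enter a median. The cause of these changes was not tested. With 2 arrays per group and no measured background, small differences and dim genes such as Eno2, Ldhb, Pdk4 and Egln3 stay uncertain in size.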
